A study of Homo sapiens with 23 samples.

Results

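The MYC, MAX and MXD network was followed as 10 genes of the 57875 listed in the count files, namely *MYC*, *MYCN*, *MYCL*, *MAX*, *MXD1*, *MXD3*, *MXD4*, *MXI1*, *MNT* and *MLX*. The genes were chosen by name and matched to the files by Ensembl identifier, and all 10 were found. RNA was sequenced from 15 samples of HCT116, a human colorectal cancer cell line, with 3 biological replicates for each of 5 lines. The lines were wild-type cells and cells edited with CRISPR to knock out *AGO1*, *AGO2*, both of these genes (the double knockout, *AGO1/2* in plots), or *AGO3* as well (the triple knockout, *AGO1/2/3* in plots). All lines were grown in the same medium at passages 12 to 18 with no treatment. Each knockout is a cell line of its own, and the sources used here do not say how many clones stand behind it. Effects of a knockout, against wild-type or against another knockout line, cannot be told apart from differences between clones. P-values measure the spread between replicate cultures within lines, which the main model estimates over all 5 lines together.

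MYC, MYCN and MYCL are transcription factors that bind DNA only after pairing with MAX, and as pairs with MAX they activate genes of ribosome production, metabolism and the cell cycle. MXD1, MXD3, MXD4, MXI1 and MNT pair with the same MAX protein, bind the same E-box sequence and recruit SIN3 and histone deacetylases to repress transcription. MLX is a MAX-like protein that pairs with MondoA and ChREBP, which respond to glucose, and with some of the MXD proteins and MNT. In colorectal cancer *MYC* is a classical target of the Wnt and beta-catenin pathway, and *MYC* mRNA is short-lived.

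Because E-boxes are where this network binds, the core promoters of the members were searched for the 6-base E-box CACGTG, a palindrome that reads the same on both strands. RefSeq windows on GRCh38.p14, from 250 bases before to 50 bases after the transcription start, were available for 9 of the 10 genes. The gene without a window was *MYC*, so its promoter was not searched. Of these 9 genes 3 held the motif, against 8.77% of 27305 genes with a window. The matches lay 238 bases before the start of *MXD4*, 193 bases before that of *MNT* and 50 bases before that of *MLX*, and are shown on the strand of the gene with the E-box in capitals, at chr4:2262330-2262359 (minus strand), chr17:2401236-2401265 (minus strand) and chr17:42567038-42567067 (plus strand).
MXD4: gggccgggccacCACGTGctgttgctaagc
MNT: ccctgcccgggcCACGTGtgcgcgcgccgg
MLX: gcgggcgcgggtCACGTGggcacgccaccc
A match is a description of these letters and not evidence of binding. Of the 3 genes, *MNT* was lower than wild-type in all 4 knockout lines. *MXD4* and *MLX* passed against wild-type in none by edgeR's quasi-likelihood test at its main settings, and in none by DESeq2. By edgeR 1 comparison had an unadjusted p under 0.05 (*MXD4* in *AGO2* knockout cells).

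Total counts per sample ran from 27709971 to 45271146, with the 3 *AGO2* knockout samples at 40419152 to 45271146. *AGO1* RNA was 107.8 to 146.4 CPM (counts scaled to the library total, with TMM factors) in wild-type cells and 28.67 to 39.45 in the 9 samples of the lines that lack *AGO1*. *AGO3* RNA was 100 to 130.4 CPM in wild-type cells and 46.06 to 57.42 in triple knockout cells. *AGO2* RNA did not check the labels in this way, at 378.7 to 459.2 CPM in wild-type, 261.8 to 314.0 in *AGO2*, 320.7 to 364.5 in double and 517.7 to 557.5 in triple knockout cells. In every line 6 of 8 colorectal epithelial markers had at least 1 CPM, with summed levels of 1329 to 2640 CPM, against at most 28.14 CPM for the summed markers of fibroblasts, endothelium or blood cells. Wild-type replicate 2 stood farthest from its own line, with a median absolute deviation of 0.202 on the log2 scale. Fold changes of the members, and *MYC* set against 8q, are also given without it where they rest on it. Levels per kb, their ratios and the correlations with *MYC* are given with all samples only. Values of other genes are given with all samples only and were not checked against this replicate.

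*MYC* had the highest RNA level per kb among the members in wild-type cells and was lower in the double and triple knockouts. Its gene lies on the long arm of chromosome 8 (chr8:127735434-127742951, hg38, plus strand). The *MYC* level was 299.6, 225.9 and 313.6 CPM in wild-type, 297.8, 310.6 and 309.6 in *AGO1* and 315.6, 363.0 and 280.8 in *AGO2* knockout cells. It was 136.1, 158.7 and 169.8 CPM in double knockout cells and 50.86, 58.82 and 65.85 CPM in triple knockout cells. In bulk RNA, fewer cells that express a gene and less RNA per cell cannot be told apart. The wild-type and single knockout samples overlapped, every double knockout sample lay below all of them, and every triple knockout sample lay below every double knockout sample.

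**Figure D1:**
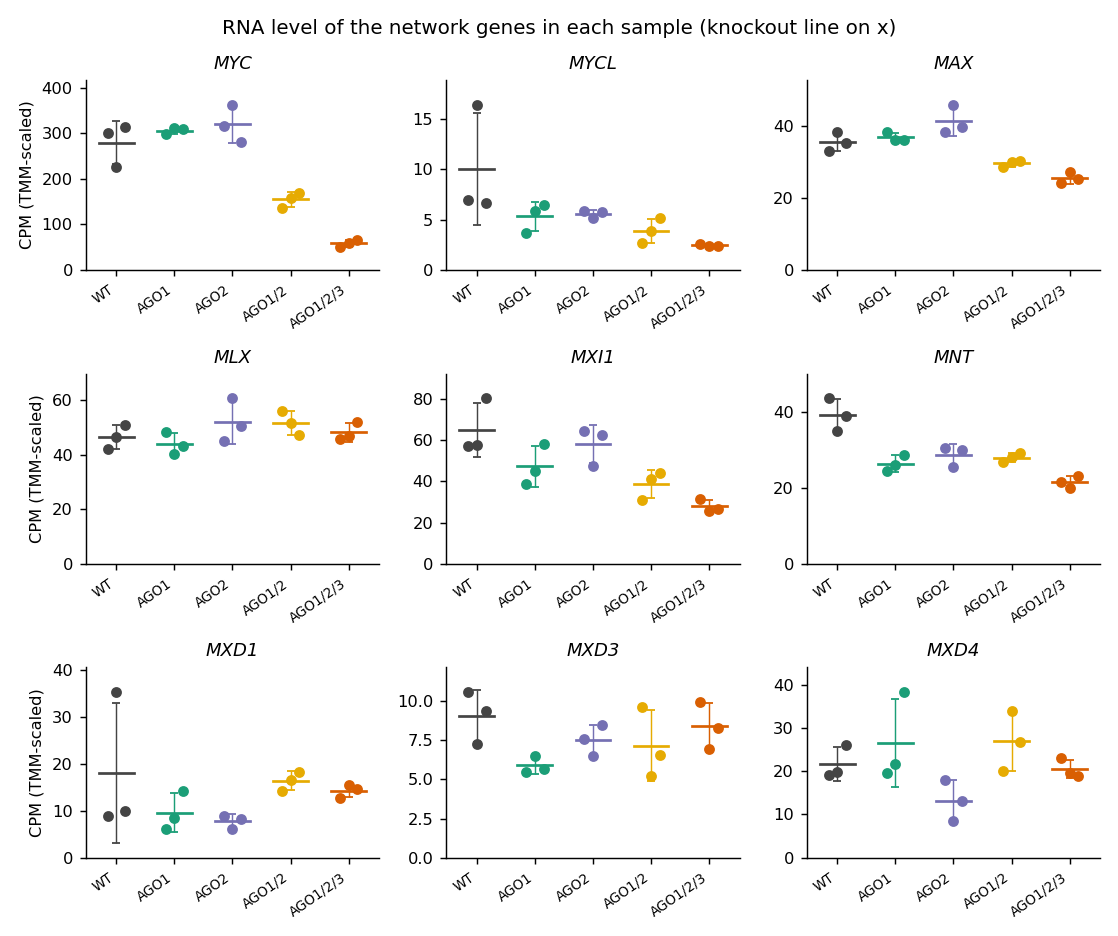
RNA level in CPM (linear axes from 0) of the 9 network genes with reads in wild-type and knockout cells. Points are samples, horizontal lines the mean of 3 samples and bars 1 SD, and *MYC* steps down from 279.7 CPM in wild-type to 154.9 in double and 58.51 in triple knockout cells.

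The log2 fold change of *MYC* against wild-type was 0.13 ± 0.14 (SE) after the loss of *AGO1* and 0.19 ± 0.14 after that of *AGO2*, with adjusted p of 0.636 and 0.333 by edgeR's quasi-likelihood test. The 95% intervals ran from -0.18 to 0.44 and from -0.11 to 0.50. In double knockout cells *MYC* was 1.81-fold lower, a log2 fold change of -0.85 ± 0.14 with adjusted p 0.000608. In triple knockout cells it was 4.78-fold lower, with -2.26 ± 0.14 and adjusted p 1.64e-08. Between these lines *MYC* was 2.65-fold lower in triple than in double knockout cells, with -1.40 ± 0.14 and adjusted p 5.33e-06. The single knockouts against each other gave 0.06 ± 0.14 with adjusted p 0.777.

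A shift of most of 8q in the double and triple knockout lines bears on the *MYC* values. Over the 355 other genes of 8q that averaged 1 CPM or more, the median log2 fold change against wild-type was 0.00 in *AGO1*, 0.02 in *AGO2*, -0.51 in double and -0.45 in triple knockout cells. In the double knockout 192 of the 355 genes (54.1%) were called lower and in the triple knockout 183 (51.5%). Over all 22842 genes tested 8.35% and 19.8% were called lower. Among 15400 genes outside chromosome 8 that also averaged 1 CPM or more, the shares were 9.14% and 21.8%. Genes of the short arm (193 genes) had medians of 0.07 and 0.13 in the same lines, and 15400 genes outside chromosome 8 had medians of 0.02 and 0.04. DNA copy number was not measured in these data.

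The shift had an edge within the arm. In bins of 5 Mb, the median was 0.09 in double and 0.05 in triple knockout cells from 60 to 55 Mb before *MYC*, over 8 genes, and -0.57 in both lines from 55 to 50 Mb before it, over 16 genes. From there to the end of the arm the bin medians lay between -0.71 and -0.40 in double knockout cells, and between -1.03 and -0.35 in triple knockout cells except for 0.22 in the bin of 6 genes from 5 to 10 Mb beyond *MYC*. Over the 293 genes of that stretch the medians were -0.59 and -0.58, which are 66.7% and 66.8% of the wild-type level. The 62 genes of 8q before it had medians of 0.07 and 0.13. The stretch was delimited after these medians were seen.

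**Figure D2:**
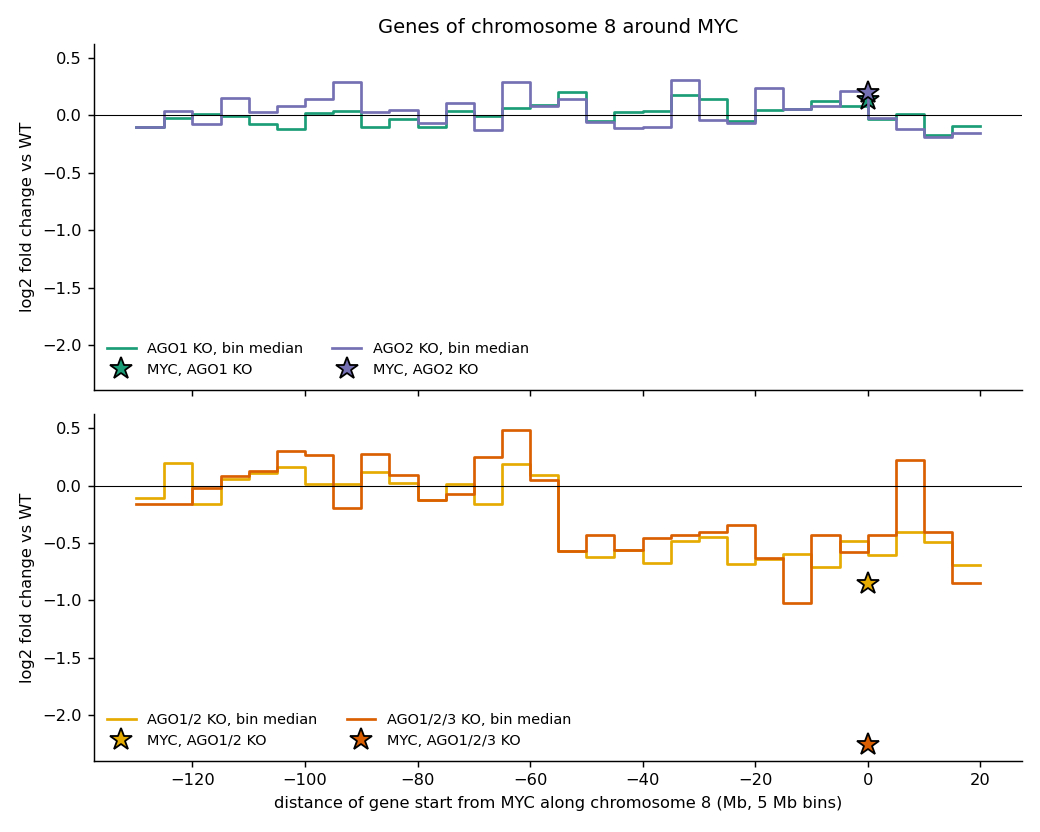
Median log2 fold change against wild-type of genes on chromosome 8 in bins of 5 Mb, by distance from *MYC*, for the single knockouts (upper panel) and for the double and triple knockouts (lower panel). Stars are *MYC* itself, which lies near the bins around it in double knockout cells (-0.85) and far below them in triple knockout cells (-2.26).

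Set against the arm, *MYC* in the double knockout samples overlapped wild-type through wild-type replicate 2 alone, and in the triple knockout samples did not. In each sample the log2 change of *MYC* from the wild-type mean was reduced by the median change of the 355 genes. The double knockout samples gave -0.51, -0.27 and -0.25 and the wild-type samples 0.11, -0.29 and 0.15, so the groups overlapped through wild-type replicate 2. The difference was -0.33, with SDs of 0.15 (knockout) and 0.24 (wild-type) and p = 0.3 by an exact two-sided permutation test over 3 against 3 samples, in which 0.1 is the smallest p possible. With a sample left out, this difference ran from -0.47, without wild-type replicate 2, to -0.25. Without that replicate the double knockout samples lay below all remaining wild-type samples. The triple knockout samples gave -1.98, -1.82 and -1.60, below all wild-type samples, and the difference of -1.79 (SD 0.19 in the knockout) had this smallest exact p of 0.1. For *AGO1* and *AGO2* knockout cells the differences were 0.14 and 0.18, each with exact permutation p = 0.5.

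In double knockout cells 74 of the 355 genes had a lower log2 fold change than *MYC*, and in triple knockout cells 15 did. The 355 genes include the 62 before the edge of the shift, here and in the scaling that follows. Against the median of the 293 genes in the shifted stretch, *MYC* was at -0.27 in double and -1.68 in triple knockout cells. Of these 293 genes, 71 and 15 were lower than *MYC*. When the scaling factors were computed from the 8q genes alone, so that the arm itself was the reference, the edgeR test gave *MYC* a log2 fold change of -0.35 ± 0.13 with adjusted p 0.0298 in double and of -1.77 ± 0.13 with adjusted p 3.08e-08 in triple knockout cells. Both lines carry the shift to about the same extent, and between them the 355 genes had a median of 0.00 while *MYC* differed by -1.40, with 8 of the 355 genes lower than *MYC*.

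**Figure D3:**
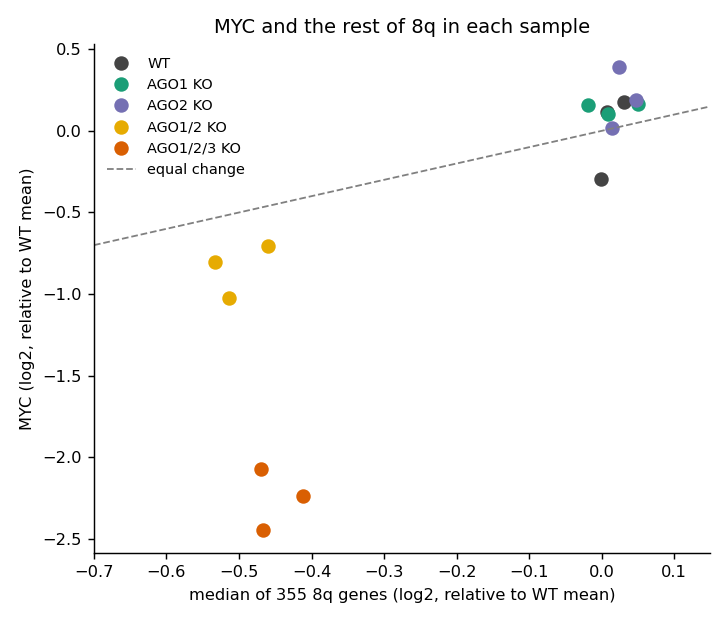
Log2 level of *MYC* (y axis) against the median of 355 other 8q genes (x axis) in each of 15 samples, both relative to the wild-type mean, with a dashed line of equal change. The double knockout samples lie 0.25 to 0.51 below the line, and the triple knockout samples lie 1.60 to 1.98 below it at a similar 8q median.

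Within 2 Mb of the *MYC* start 7 other genes had a mean of at least 1 CPM, and all 7 were called lower in triple knockout cells, with a median log2 fold change of -1.51. In double knockout cells 5 of the 7 were called lower, with a median of -1.02. Over all genes tested, 8.35% were called lower in double and 19.8% in triple knockout cells. Within 5 Mb, 24 of 41 genes were called lower in each of these lines, with medians of -0.56 and -0.58. In triple knockout cells 3 of the 41 were called higher. Of the 7 nearest genes, *RNVU1-32* and *POU5F1B* averaged only 1.72 and 1.11 CPM. *PVT1*, a long non-coding RNA that starts 0.0591 Mb beyond *MYC*, was 46.27, 53.26 and 46.79 CPM in wild-type, 29.21, 29.42 and 32.46 in double and 16.76, 17.59 and 17.18 in triple knockout cells. Its log2 fold changes were -0.68 ± 0.09 (adjusted p 0.000131) and -1.51 ± 0.09 (adjusted p 1.31e-08). The order of the lines was that of *MYC*, with a smaller step between triple and double knockout cells (-0.82 ± 0.09, against -1.40 ± 0.14 for *MYC*). *CASC19*, a non-coding RNA 0.663 Mb before *MYC*, changed by -1.64 and -3.13, and *LRATD2*, 1.18 Mb before it, by -2.55 and -3.53, both further than *MYC* in each line. The others were *CASC8* (-1.21 and -1.32), *RNVU1-32* (-1.02 and -1.82), *PRNCR1* (-0.33 and -0.74) and *POU5F1B* (-0.71 and -0.76), of which *PRNCR1* and *POU5F1B* did not pass the test in the double knockout, with adjusted p of 0.343 and 0.0725. In *AGO2* knockout cells, which had no shift of 8q, *LRATD2* (-1.24) and *POU5F1B* (-0.89) were called lower.

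*MYCL*, the MYC paralogue first found in lung cancer, fell in the same lines as *MYC* from a far lower level (chr1:39895428-39902256, minus strand). It was 6.986, 16.41 and 6.693 CPM in wild-type, 3.703, 5.846 and 6.436 in *AGO1*, 5.821, 5.162 and 5.750 in *AGO2*, 2.658, 3.828 and 5.121 in double and 2.577, 2.382 and 2.372 in triple knockout cells. All 12 knockout samples lay below all wild-type samples, and wild-type replicate 2 was the highest of all. The fold change was 2.60-fold lower in double knockout cells (log2 -1.38 ± 0.32, adjusted p 0.00703) and 4.09-fold lower in triple knockout cells (-2.03 ± 0.33, adjusted p 0.000144). Its values in the single knockouts, -0.91 and -0.85, did not pass with edgeR (adjusted p 0.0837 and 0.0623) and did with DESeq2, with total counts as the scaling and with no filter on low counts. Without wild-type replicate 2 the log2 fold changes of *MYCL* were -0.36 and -0.32 in the single knockouts (adjusted p 0.389 in each), -0.84 in double (adjusted p 0.0226) and -1.51 in triple knockout cells (adjusted p 0.000129), so this library sets much of their size. When only the 6 samples of the compared lines entered the fit, the double knockout value was -1.40 with adjusted p 0.0562.

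*MYCN*, the paralogue amplified in neuroblastoma, was listed at 0 counts in all 15 samples, which allows up to 3 counts or 0.0663 to 0.108 CPM, for counting error only. The antisense transcript *MYCNOS*, which overlaps *MYCN*, had a mean of 37.3 counts. *MYCN* entered no test, and 9 of the 10 members passed the filter on low counts.

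*MAX*, the shared partner of the network (chr14:65006174-65102695, minus strand), changed less than *MYC*. It was 32.96, 38.15 and 35.21 CPM in wild-type, 38.19, 36.14 and 36.08 in *AGO1*, 38.22, 45.83 and 39.72 in *AGO2*, 28.50, 30.00 and 30.21 in double and 24.04, 27.29 and 25.22 in triple knockout cells. The triple knockout samples lay below all others, and *MAX* fell 1.39-fold there (log2 -0.47 ± 0.09, adjusted p 0.000904). The double knockout samples also lay below all wild-type samples, with -0.26 ± 0.09 and an adjusted p of 0.0736 by edgeR, and *MAX* was called there by DESeq2. In *AGO2* knockout cells *MAX* was above all wild-type samples, with 0.22 ± 0.09 and adjusted p 0.11. Exons of *MAX* overlap *FNTB* on the opposite strand by up to 822 bases, and whether the counting used strand is not given in the sources used here.

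*MLX*, the MAX-like partner of MondoA (chr17:42567072-42573239, plus strand), passed the test in none of the comparisons by edgeR's main settings or by DESeq2. With edgeR's main settings no comparison had an unadjusted p under 0.05. It was 42.29 to 51.04 CPM in wild-type and 40.16 to 60.72 CPM in the knockout samples. In triple knockout cells its log2 fold change was 0.05 with a 95% interval from -0.22 to 0.32. Its exons overlap *PSMC3IP* on the opposite strand by up to 715 bases.

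Among the repressors, *MXI1* and *MNT* fell, and the 3 genes named MXD did not pass against wild-type in any line with edgeR's main settings. *MNT*, the widely expressed antagonist of MYC (chr17:2384073-2401104, minus strand), was 43.58, 35.06 and 38.92 CPM in wild-type, 24.43, 26.13 and 28.68 in *AGO1*, 30.54, 25.39 and 29.94 in *AGO2*, 26.84, 28.07 and 29.07 in double and 21.59, 20 and 23.01 in triple knockout cells. Every knockout sample was below every wild-type sample, including the single knockouts, where *MYC* did not pass the test. The log2 fold changes were -0.57 ± 0.11 (adjusted p 0.00413), -0.45 ± 0.11 (0.0118), -0.49 ± 0.11 (0.00559) and -0.86 ± 0.11 (1.41e-05) in the 4 lines in this order. In fits of 6 samples only, *MNT* had adjusted p of 0.0614 and 0.0612 in the *AGO1* and *AGO2* knockouts, and without *AGO2* knockout replicate 2 it was 0.0655 in *AGO2* knockout cells. *MNT* was also lower in triple than in double knockout cells (-0.38 ± 0.11, adjusted p 0.0205), a call that was lost without double knockout replicate 2 or 3 (adjusted p 0.0617 and 0.0521) and without triple knockout replicate 1 or 2 (0.0631 and 0.105).

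*MXI1*, also known as MXD2 (chr10:110207605-110287365, plus strand), was 57.17, 57.95 and 80.35 CPM in wild-type, 38.75, 45.02 and 58.23 in *AGO1* and 64.55, 47.73 and 62.80 in *AGO2* knockout cells. It was 30.97, 41.31 and 43.99 CPM in double and 31.64, 25.86 and 26.50 in triple knockout cells, below all wild-type samples in both. It was 1.68-fold lower in double knockout cells (log2 -0.75 ± 0.18, adjusted p 0.0105) and 2.32-fold lower in triple knockout cells (-1.22 ± 0.19, adjusted p 8.72e-05). In the single knockouts its values of -0.46 and -0.16 had adjusted p of 0.141 and 0.561.

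*MXD1*, which is induced as cells differentiate (chr2:69897688-69942945, plus strand), depended on 1 wild-type sample. It was 8.835, 35.19 and 9.919 CPM in wild-type cells, so that replicate 2 was over 3 times the others, 6.088 to 14.21 in the single knockouts, and 14.16, 16.62 and 18.16 in double and 12.68, 15.49 and 14.54 in triple knockout cells. The samples of the double and triple knockouts lay above the other 2 wild-type samples and below replicate 2. In *AGO2* knockout cells *MXD1* changed by -1.22 ± 0.42 with adjusted p 0.0523, and by -0.30 with adjusted p 0.481 without wild-type replicate 2. It passed there by edgeR with total counts (0.0357), no filter on low counts (0.00431) and at least 10 counts (0.0472). The same held without wild-type replicate 1 (0.0207) or 3 (0.0189) and without *AGO1* replicate 1 (0.0467) or 3 (0.0406). All of these settings keep wild-type replicate 2. With all samples the log2 fold changes in the double and triple knockouts were -0.14 ± 0.41 and -0.34 ± 0.41 with adjusted p of 0.865 and 0.551. Without wild-type replicate 2 they were 0.78 ± 0.26 and 0.57 ± 0.26 with adjusted p of 0.055 and 0.0943. Exons of *MXD1* overlap *SNRNP27* on the same strand by up to 172 bases, so that reads there could be shared.

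*MXD3* and *MXD4*, other partners of MAX, passed the test against wild-type in no line with edgeR's main settings. *MXD3* (chr5:177301461-177312757, minus strand) was 7.267 to 10.56 CPM in wild-type, 5.477 to 6.504 in *AGO1* knockout cells and 5.207 to 9.952 in the other knockout samples, and its exons overlap *RAB24* on the same strand and *PRELID1* on the other. Its largest change was -0.62 ± 0.21 in *AGO1* knockout cells with adjusted p 0.0816. That p was 0.0467 without wild-type replicate 2, 0.0412 with total counts and 0.0417 without double knockout replicate 1. In double knockout cells *MXD3* passed without double knockout replicate 1 (-0.64, adjusted p 0.0478). *MXD4* (chr4:2247432-2262109, minus strand) was 19.05 to 26.11 CPM in wild-type, 19.61, 21.74 and 38.28 in *AGO1* and 17.96, 8.449 and 13.10 in *AGO2* knockout cells. The *AGO2* knockout samples of *MXD4* lay below all wild-type samples, with -0.72 ± 0.28 and adjusted p 0.0798, and the value passed with total counts (0.0458), with no filter on low counts (0.0231), without *AGO1* replicate 3 (0.0438) and without *AGO2* replicate 1 (0.029). It was lower in *AGO2* than in *AGO1* knockout cells (-1.01 ± 0.28, adjusted p 0.0214), a call lost without *AGO1* replicate 3 (-0.65, adjusted p 0.127) and without *AGO2* replicate 2 or 3 (adjusted p 0.0842 and 0.0649), or in a fit of 6 samples (0.0534).

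**Figure D4:**
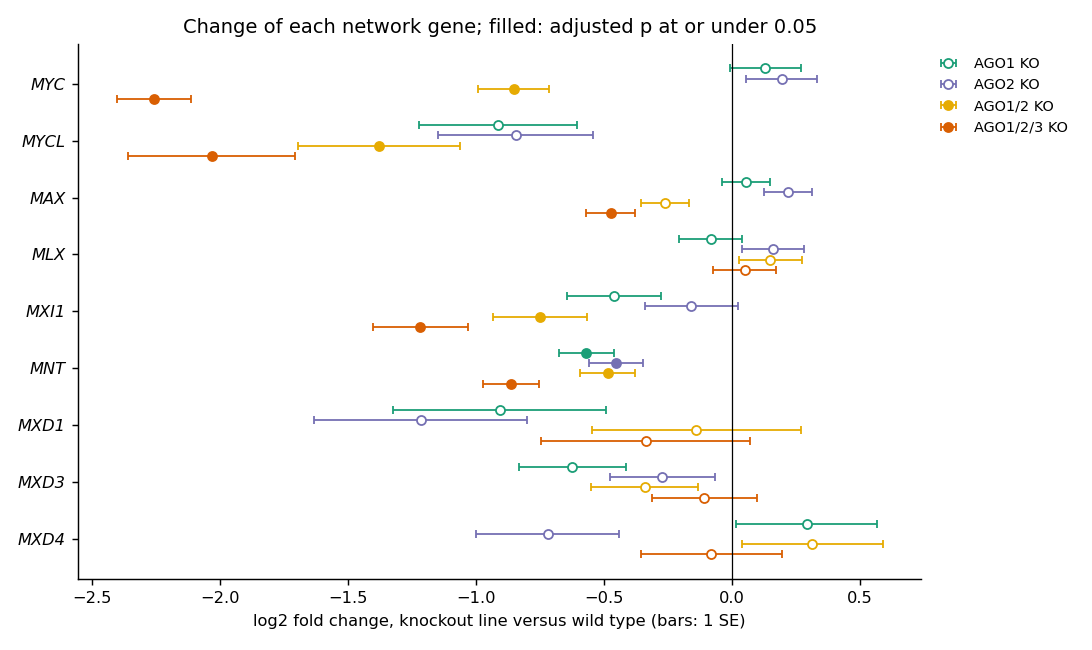
Log2 fold change against wild-type of the 9 network genes tested in each of the 4 knockout lines, with bars of 1 SE and filled points where the edgeR adjusted p is at or under 0.05. The filled points are *MNT* in all lines, *MYC*, *MYCL* and *MXI1* in double and triple knockout cells, and *MAX* in triple knockout cells, and all lie to the left of 0.

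Counted over the network, 1 of the 9 genes tested was called against wild-type after the loss of *AGO1*, where 8.68% of all genes tested were called (3.17% higher, 5.5% lower), and 1 after the loss of *AGO2*, where 19.3% were (8.55% higher, 10.8% lower). In the double knockout 4 of 9 were called against 16.7% of all genes (8.37% higher, 8.35% lower), and in the triple knockout 5 of 9 against 40.1% (20.3% higher, 19.8% lower). Between the triple and double knockouts 2 of 9 were called against 22% (11.9% higher, 10% lower), and between the single knockouts 1 of 9 against 18.4% (9.67% higher, 8.73% lower in *AGO2* knockout cells). All of these were lower in the line with more genes knocked out or, between the single knockouts, in *AGO2* knockout cells. In these 6 comparisons no member was higher by edgeR's main settings or by DESeq2, with 1 gene (*MAX* in *AGO2* knockout cells) higher at an unadjusted p under 0.05.

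The samples of the compared lines did not overlap for 3, 4, 5 and 5 of the 9 genes in the 4 knockout lines, where 23.1%, 37.1%, 29.7% and 50% of all genes did not overlap. Triple and double knockout samples did not overlap for 4 of 9 genes against 41.6% of all genes, and those of the single knockouts for 3 of 9 against 39%. The median log2 fold change of the 9 genes against wild-type was -0.46, -0.27, -0.34 and -0.47 in the 4 lines, and that of all genes tested was -0.01, -0.02, 0.01 and -0.01. Joint loss of *AGO1* and *AGO2* differed from the sum of the single losses for 4 of 9 genes, against 19.7% of all genes, with *MYC* and *MAX* below the sum (8.26% of all genes) and *MXD1* and *MNT* above it (11.5%).

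No shift of that size was seen around the other members. In windows of 10 Mb to each side of each of the other 8 genes tested, with 80 to 304 genes, the median log2 fold change lay between -0.13 and 0.16 in all 4 lines. The 10 Mb window of *MYC* held 58 genes with medians of -0.55 in double and -0.45 in triple knockout cells.

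Levels of different genes were compared per kb of exon, as CPM divided by the length of the union of a gene's exons. In wild-type cells *MYC* had 45.8 CPM per kb, followed by *MXI1* (11.03) and *MLX* (10.96), whose samples overlapped, then *MAX* (5.66) and *MNT* (4.504), which did not. *MXD4* (3.16), *MXD1* (2.83), *MYCL* (2.02) and *MXD3* (1.91) came last, each overlapping the next. In triple knockout cells *MLX* (11.3) and *MYC* (9.58) had overlapping levels, followed by *MXI1* (4.74), *MAX* (4.08), *MXD4* (2.98), *MNT* (2.48), *MXD1* (2.24), *MXD3* (1.77) and *MYCL* (0.492). *MYC* was thus the highest member per kb in wild-type, *AGO1*, *AGO2* and double knockout cells, without overlap, and not in triple knockout cells. This order depends on the exon lengths used, 6109 bases for *MYC* and 4255 for *MLX*. In CPM not divided by length, *MYC* had 58.51 and *MLX* 48.22 in triple knockout cells, with overlapping samples.

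The balance of activator to repressor RNA was lowest in the triple knockout. The sum of the 5 repressors per kb was 23.4 ± 2.19 (SD, n = 3) in wild-type, 17.7 ± 4.04 in *AGO1*, 17.9 ± 2.92 in *AGO2*, 17.8 ± 1.96 in double and 14.2 ± 0.953 in triple knockout cells. *MYC* per kb divided by this sum was 1.97 ± 0.390 in wild-type, 2.92 ± 0.573 in *AGO1* and 3.02 ± 0.920 in *AGO2* knockout cells. It was 1.43 ± 0.0464 in double and 0.679 ± 0.120 in triple knockout cells. The wild-type samples were at 2.33, 1.55 and 2.02, with replicate 2 the lowest. The *AGO1* knockout samples (2.29 to 3.40) overlapped them, and the *AGO2* knockout samples (2.41 to 4.08) did not. The triple knockout samples, at 0.545 to 0.775, lay below all others. *MYC* divided by *MAX* was 8.17 ± 1.82 in wild-type, 5.36 ± 0.436 in double and 2.35 ± 0.282 in triple knockout cells. Wild-type replicate 2 was at 6.07, and replicates 1 and 3 at 9.31 and 9.12. These are ratios of RNA and not of protein, and *MYC* was not adjusted in them for the shift of 8q.

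Across the 15 samples, which fall into 5 lines and share the scaling, the log2 level of *MAX* followed *MYC* most closely among the members (Pearson r = 0.90, Spearman rho = 0.81), then *MXI1* (0.82 and 0.77), *MYCL* (0.71 and 0.69) and *MNT* (0.64 and 0.51). *MLX* (-0.08), *MXD4* (-0.16), *MXD3* (-0.24) and *MXD1* (-0.44) had r below 0. Among 16082 genes the 5 most like *MYC* were *SLC27A6* (r = 0.986), *TAF4B*, *NPM3*, *PROM1* and *HOMER1* (each 0.984), and none of them lies on chromosome 8. *NPM3*, a nucleolar chaperone, was 58.4 CPM in wild-type, 36.2 in double and 16.1 in triple knockout cells. *PROM1*, the stem cell surface protein CD133, was 29.4, 12.7 and 3.90 CPM in the same lines. With groups this far apart the correlations describe steps between lines.

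Known targets of MYC, listed from textbook knowledge, moved in both directions. Of 39 genes activated by MYC that were tested, 16 fell and 5 rose in triple knockout cells, with a median log2 fold change of -0.27, where 19.8% of all genes tested fell and 20.3% rose. In double knockout cells 2 fell and 1 rose (median -0.11), against 8.35% and 8.37% of all genes. In *AGO2* knockout cells 9 of the 39 were called, each of them higher (median 0.43), against 8.55% of all genes. In *AGO1* knockout cells 2 rose and 1 fell (median 0.15), against 3.17% and 5.5% of all genes. The 16 genes that fell in the triple knockout included *NPM1*, *FBL*, *NOP56*, *NOP16*, *POLR1B*, *RRP9*, *RRP12*, *GNL3*, *BOP1*, *WDR43* and *DKC1*, which act in the nucleolus or in making ribosomes and of which *BOP1* lies on 8q, and *SHMT2* and *MTHFD2*, enzymes of serine and folate metabolism. The nucleolar genes *NCL* (-0.38, adjusted p 0.0954) and *NOP58* (-0.37, adjusted p 0.0597) of the same list did not pass. The genes that rose were the glucose transporter *SLC2A1*, *PKM*, *CDC25A*, *E2F1* and *SHMT1*, another enzyme of serine and folate metabolism (0.69, adjusted p 0.0306).

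The largest changes among the activated genes were in *TERT*, the catalytic subunit of telomerase, at 3.55 ± 1.92 CPM (SD, n = 3) in wild-type and 0.347 ± 0.0702 in triple knockout cells (log2 -3.37 ± 0.46, adjusted p 3.02e-05). *MTHFD2*, a mitochondrial folate enzyme, was 440.1 ± 165.8 and 125.7 ± 11.8 CPM (-1.81 ± 0.32, adjusted p 0.000352). *CDC25A*, a phosphatase that activates cyclin-dependent kinases, went the other way, from 22.0 ± 8.88 to 69.9 ± 6.31 CPM (1.67 ± 0.34, adjusted p 0.00102). None of these 3 passed in double knockout cells, with adjusted p of 0.266, 0.388 and 0.193.

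Of 14 genes repressed by MYC, 8 rose and 4 fell in triple knockout cells (median 0.78), where 20.3% of all genes tested rose and 19.8% fell. In double knockout cells 3 rose and 1 fell (median 0.18), against 8.37% and 8.35% of all genes. In *AGO2* knockout cells 2 rose and 4 fell (median -0.36), against 8.55% and 10.8%, and in *AGO1* knockout cells 1 fell (median -0.53), against 5.5%. Those that rose in the triple knockout included the cell cycle inhibitors *CDKN1A*, *CDKN1B*, *CDKN1C* and *CDKN2B* and the integrins *ITGA6* and *ITGB4*. *THBS1*, thrombospondin 1, was 20.7 ± 9.12 CPM in wild-type and 137.5 ± 52.1 in triple knockout cells (log2 2.73 ± 0.38, adjusted p 3.84e-05). *CLU*, clusterin, was 63.9 ± 26.9 and 250.3 ± 17.7 CPM (1.97 ± 0.24, adjusted p 1.04e-05), and also rose in double knockout cells (1.23, adjusted p 0.00205). *CDKN2B* was 17.4 ± 13.5 and 51.2 ± 2.69 CPM (1.56 ± 0.40, adjusted p 0.00528). Those that fell in the triple knockout were *GADD45A*, *CEBPA*, *CEBPD* and *DDR1*.

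**Figure D5:**
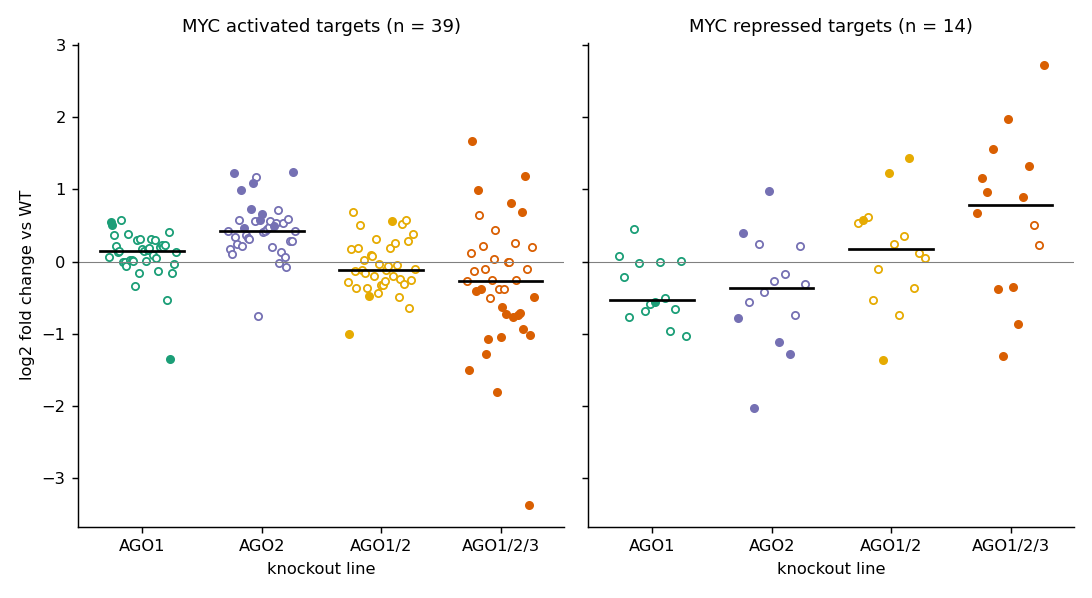
Log2 fold change against wild-type of 39 genes activated (left) and 14 genes repressed (right) by MYC in each knockout line, with filled points where the edgeR adjusted p is at or under 0.05 and black lines at the median. In triple knockout cells the medians are -0.27 and 0.78, and both lists hold called genes on each side of 0.

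Genes that act on MYC or with it were counted in triple knockout cells, where 20.3% of all genes tested rose and 19.8% fell. Of 16 genes of MYC protein turnover 6 rose and 1 fell (median 0.26). The largest were *CIP2A*, an inhibitor of the phosphatase PP2A (0.94 ± 0.26, adjusted p 0.00821), *SKP2*, a ubiquitin ligase subunit (0.90 ± 0.30, 0.0242), and *AURKA*, a mitotic kinase (0.87 ± 0.33, 0.0481). *FBXW7*, the ubiquitin ligase subunit that recognises phosphorylated MYC, and *GSK3B*, the kinase that marks it, also rose (0.47 and 0.74). Of 11 genes that control *MYC* mRNA 5 rose and 1 fell (median 0.26), with *IGF2BP1* at 1.27 ± 0.24 (adjusted p 0.000516), *IGF2BP3* at -0.69 ± 0.19 (0.00988) and *FUBP1* at 0.61 ± 0.18 (0.0119), the first being a low transcript of 1.07 CPM in wild-type cells. Of 16 MYC coactivators 3 rose and 3 fell (median -0.04), near the share of all genes in each direction, the largest being *HCFC1* (0.69 ± 0.18), *PAF1* (0.66 ± 0.12) and *KAT2A* (-0.52 ± 0.14).

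On the repressor side, 1 of 11 SIN3 and histone deacetylase corepressor genes was called in triple knockout cells, *RBBP4*, a histone chaperone, at 0.42 ± 0.13 (adjusted p 0.0179), where 40.1% of all genes tested were called. *SIN3B*, a scaffold of the SIN3 complex, was lower in *AGO1* (-0.34, adjusted p 0.0453), *AGO2* (-0.50, adjusted p 0.0052) and double knockout cells (-0.44, adjusted p 0.00649) and did not pass in the triple knockout (-0.17, adjusted p 0.2). Of 3 other partners of MAX and MLX, *MLXIPL*, which encodes ChREBP, fell from 40.4 ± 9.49 to 20.5 ± 5.97 CPM (-0.97 ± 0.24, adjusted p 0.00387) in the triple knockout. *MLXIPL* was also lower in *AGO1* (-0.87, adjusted p 0.0326) and *AGO2* knockout cells (-1.27, adjusted p 0.00352), where *MYC* did not pass the test, while its value in double knockout cells (-0.58) had adjusted p 0.106. Of 4 target genes of MondoA and MLX that were tested, *ARRDC4* and *HK2* fell in double and triple knockout cells, where 8.35% and 19.8% of all genes fell. *KLF10* and *PFKFB3* did not pass in either line (-0.07 and -0.24 in triple knockout cells). *ARRDC4*, an arrestin family member, was 38.9 ± 33.9 CPM in wild-type, 11.4 ± 1.09 in double and 2.01 ± 0.662 in triple knockout cells, with log2 fold changes of -1.77 (adjusted p 0.0313) and -4.25 (5.17e-05). *HK2*, hexokinase 2, was 93.9 ± 46.9, 40.7 ± 5.51 and 13.4 ± 2.40 CPM in these lines, with -1.21 (adjusted p 0.00551) and -2.81 (1.65e-06).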

How the data were processed

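RNA was measured in 15 samples of 5 HCT116 lines, and 8 eCLIP samples of the series were not analysed here. The authors depleted ribosomal RNA, made stranded libraries, sequenced them from both ends, aligned reads to hg38 with STAR and quantified them with Salmon. The submitters' processing notes give STAR 2.5.3a and Salmon 0.11.0, while the methods name other versions, so the versions are uncertain. The deposited values are estimated counts per gene (expected counts), 1 file per sample, not normalized. The *AGO2* knockout libraries carry a different Salmon mode in their file headers, which cannot be told apart from the knockout itself. No 2 of the 15 files were identical.

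Estimated counts were rounded, filtered with filterByExpr (22842 genes kept) and scaled by TMM. 1 quasi-likelihood model of 5 line means was fitted with edgeR 4.0.16 in R 4.3.3. A gene was called at a Benjamini-Hochberg adjusted p of 0.05 or less, with the adjustment over every gene tested. SEs were taken as the log2 fold change divided by the square root of F, and 95% intervals used a t distribution with 10 residual degrees of freedom. Log2 levels of single samples used a prior count of 2. The non-additive contrast is the double knockout minus both single knockouts plus wild-type. The fit was tested on simulated counts. Gene positions were taken from GENCODE v44 (57167 of 57875 identifiers matched), and 8q begins at 46 Mb. Permutation tests used scipy 1.17.1, and tables Python 3.11.15.

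The members and gene lists were chosen with earlier results of these data known. Named genes were the 10 members, *AGO1* to *AGO3* of the targeted genes, at most 3 genes per other list with the largest called change in triple knockout cells, the 5 most correlated with *MYC*, and 8q genes within 2 Mb of it. Other genes named with their counts, such as *NCL*, *NOP58*, *SIN3B*, *FBXW7* and *GSK3B*, were chosen after their values were seen. Alternatives tried were other scaling (DESeq2 size factors, total counts, genes outside chromosome 8, 8q genes), DESeq2 1.42.0, other filters on low counts, a 2-fold threshold, fits of 6 samples, the replicate number as a block and leaving out each sample.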

Additional observations from a re-analysis of the deposited data

Results flagged for a closer look

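The effect of losing *AGO1* and *AGO2* together differed from the sum of the single losses for 4 of the 9 genes tested, where 19.7% of all genes did by the same edgeR quasi-likelihood contrast. For *MYC* the log2 difference from the sum was -1.18 ± 0.20 (SE, adjusted p 0.000858), with single changes of 0.13 and 0.19 and a joint change of -0.85. The 8q median differed by -0.59 in the same contrast over the 293 genes from 55 Mb before *MYC* to the end of the arm, and with scaling factors from 8q genes *MYC* gave -0.65 with adjusted p 0.00949. For *MAX* the difference was -0.53 ± 0.13 (adjusted p 0.0117).

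For *MXD1* the difference was 1.98 ± 0.59 (adjusted p 0.0280), and 1.05 ± 0.34 (adjusted p 0.0444) without wild-type replicate 2. For *MNT* it was 0.54 ± 0.15 (adjusted p 0.0222), with changes of -0.57, -0.45 and -0.49 in the *AGO1*, *AGO2* and double knockout cells. The *MXD1* and *MNT* values each missed the threshold when some single knockout or double knockout samples were left out, with adjusted p of up to 0.0716 and 0.0727. The *MNT* value also missed it without wild-type replicate 1 (0.066) and with no filter on low counts (0.103). No explanation was tested.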

How the results depend on the processing

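The call of *MYC* against wild-type held in triple knockout cells under each alternative run, and in double knockout cells under each except the 2-fold threshold. With scaling factors from 8q genes, which moved the median of all genes by 0.50 in double and 0.49 in triple knockout cells, *MXI1* and *MNT* in double and *MAX* in triple knockout cells no longer passed, while *MXD4* and *MLX* in double and *MLX* in triple knockout cells were called higher. The number of members called moved with the settings. The share of all genes called under each setting is not given here, so these counts cannot be set against all genes. With a 2-fold threshold it was 0 in *AGO1*, 0 in *AGO2*, 1 in double and 3 in triple knockout cells, 1 between triple and double knockouts and 2 for the non-additive contrast. In *AGO1* and *AGO2* knockout cells it was 3 and 4 with total counts, 2 and 2 with DESeq2, 2 and 4 without the filter and 0 and 0 in fits of 6 samples, and 2 in *AGO2* knockout cells with at least 10 counts. Fits of 6 samples gave 4 between triple and double and 0 between single knockouts. Leaving out each sample gave 1 to 2, 0 to 3, 4 to 5 and 5 to 5 calls in the 4 lines, 1 to 3 between triple and double, 0 to 1 between single knockouts and 2 to 5 for the non-additive contrast.

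*MYC* in *AGO1* knockout cells ran from -0.000375 (without wild-type replicate 2) to 0.22, in *AGO2* from 0.04 to 0.26, in double from -1.001 to -0.78 and in triple from -2.42 to -2.18 (log2, samples left out). *MYC* minus the 8q median in *AGO1* knockout cells was 0.00266 to 0.223 with a sample left out, 0.24 against genes distal and 0.0767 against genes proximal to *MYC*. Against the distal genes it was -0.17 in double and -1.52 in triple knockout cells. Uncalled values changed sign without wild-type replicate 2 for *MXD1* (0.0309, 0.782 and 0.573 in *AGO1*, double and triple), without *AGO1* replicate 3 or wild-type replicate 3 for *MXD4* (-0.0492 in *AGO1*, 0.0441 in triple), with total counts for *MAX* in *AGO1* (-0.0352), and for *MLX* in triple with total counts (-0.0921), at least 10 counts (-0.0164), 6 samples (-0.00577) or without wild-type replicate 1 (-0.0361) or triple knockout replicate 3 (-0.0539). Over all samples left out, *MXD1* ran from -1.28 to 0.0309, -0.477 to 0.782 and -0.686 to 0.573 in these lines, *MXD4* from -0.0492 to 0.469 in *AGO1* and -0.19 to 0.0441 in triple, and *MLX* from -0.0539 to 0.0911 in triple knockout cells. The causes were not tested. Total counts moved the median of all genes by -0.12 in *AGO2* and -0.14 in triple knockout cells.

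Replicate numbers did not pair the samples (mean correlation of deviations -0.00669, range -0.218 to 0.291). With the replicate number as a block *MYC* gave -0.86 in double and -2.26 in triple knockout cells, and the calls of members were 1, 1, 4 and 5 in the 4 lines. With 3 replicates a line, the median SE over all genes tested was about 0.2 (log2). Changes near the size of a gene's own SE were not detectable.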
